A study of Mus musculus with 7 samples.

Results

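A total of 325 nuclei were chosen as oligodendrocyte precursor nuclei from the expression of Pdgfra, out of 32335 nuclei kept and 47348 nuclear barcodes. A nucleus was chosen when it held more than 200 transcripts outside the viral barcodes, counted as unique molecular identifiers (UMIs), at least 2 of them from Pdgfra. For 3 members this count passed 200 only with the UMIs of a column named Vector, which followed the viral counts. It further had no Cldn5 UMI (endothelium), at most 1 UMI of Gad1 and Gad2 together (inhibitory neurons) and none of Mag or Mog (myelinating oligodendrocytes). Those 6 genes therefore describe the choice, and are no findings. The nuclei came from the visual cortex (V1) of male C57BL/6J mice of 6 to 10 weeks, which had received AAV9 carrying the PESCA library. PESCA pairs each of 287 candidate gene regulatory elements (GREs) with transcribed barcodes, so that single-nucleus RNA sequencing (snRNA-Seq, inDrops) reads the cell type and the activity of the GREs in the same nucleus. The labels give 1 sample in 10 libraries, which form 2 library sets of 5, and the methods of the study describe 2 animals with 5 libraries each, but the labels tie no animal to a set, and no uninjected mouse was analysed here. With 1 sample no difference between groups was tested. Intervals are exact 95% intervals that cover counting error only, and the spread over the 10 libraries is given as the lowest, median and highest library.

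Oligodendrocyte precursor cells (OPCs) are the dividing glial cells that give rise to myelinating oligodendrocytes, and they remain throughout the adult cortex. They depend on platelet-derived growth factor (PDGF-A), which signals through the receptor tyrosine kinase Pdgfra, and they carry the proteoglycan NG2, the product of Cspg4. In the brain, Pdgfra is also expressed by fibroblasts of the meninges and of larger vessels. OPCs receive synapses from neurons and lose Pdgfra as they commit to making myelin, passing through a stage marked by the receptor Gpr17.

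The chosen nuclei made up 1.01% of the kept nuclei (0.899 to 1.12), and 0.682%, 1.04% and 1.28% in the lowest, median and highest library. Between 22 and 42 of them came from each library. They were shallow, with a median of 362 UMIs against 707 in the 32010 other kept nuclei and 392 in 816 oligodendrocyte nuclei, which were defined by at least 2 UMIs of Mag and Mog together, no Pdgfra or Cldn5 UMI and at most 1 of Gad1 and Gad2. Of 346 kept nuclei with 2 or more Pdgfra UMIs, 9 held Mag or Mog, 9 held more than 1 Gad UMI and 4 held Cldn5. Just inside the threshold lay 117 nuclei with 2 Pdgfra UMIs, of which 55.6% had an Olig1 or Olig2 UMI. Just outside lay 248 nuclei with 1 Pdgfra UMI that met every other condition, of which 33.9% had an Olig1 or Olig2 UMI. That share was 77.7% in the 130 nuclei with 4 or more. The barcodes of 63 members recurred as names in another library, as did those of 11945 kept nuclei, and 2 members bore the same barcode name in different libraries.

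At least 1 UMI of 26 genes fixed as OPC identity markers, among them Olig1, Olig2, Cspg4 and Vcan, was found in 292 of the 325 nuclei. The list is shared with other glia, since 1132 of 1223 astrocyte nuclei (at least 3 UMIs of Aqp4, Gja1 and Slc1a3) and 584 of 816 oligodendrocyte nuclei also held a UMI of it, at summed levels of 89.1 and 35.7 UMIs per 10000 cellular UMIs against 148 in the members and 12.0 in all other kept nuclei. A minority carried the transcripts of vascular leptomeningeal fibroblasts instead. Of the 325 nuclei, 277 had no UMI over a list of 13 fibroblast genes, among them collagens, Dcn and Lum, 5 had 1 UMI, and 43 had 3 or more. No nucleus had 2, and 32 of the 43 had at least 11. The 43 nuclei, 13.2% of the members (9.74 to 17.4), held 30.3% of the members' UMIs, since they were deeper, with a median of 724 UMIs. They occurred in every library, 2 to 6 in each. Only 2 of them had an Olig1 or Olig2 UMI, and 28 had no UMI of the 26 OPC identity genes, which did not include Pdgfra. A further 9 of the 43 had UMIs of at least 2 OPC identity genes, and single nuclei held more OPC identity than fibroblast UMIs, as 12 against 3 in library 2-1. The label therefore did not hold for most of the 43, and they are called fibroblast-marker nuclei below. The other 282 are called OPC-like nuclei. Of these, 218 had an Olig1 or Olig2 UMI, 265 had UMIs of at least 2 OPC identity genes, and 5 had none. Among the 24 of them above 1000 UMIs, many held few OPC identity UMIs for their depth. Examples are 4 among 2533 UMIs in library 1-5 and 2 among 1978 in library 2-2, though others held 20. The name may therefore not hold for each of the 282, and the part of the deep nuclei in the pooled levels below was not tested. At least 2 UMIs of the list were found in 94.3% of the OPC-like and 83.7% of the astrocyte nuclei, so that this count alone does not tell them apart. Olig1 and Olig2 were found in 8.18% and 4.33% of the astrocyte nuclei. The split at 2 fibroblast UMIs was chosen with the values known, so the difference in fibroblast genes between both classes follows from it.

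**Figure D1:**
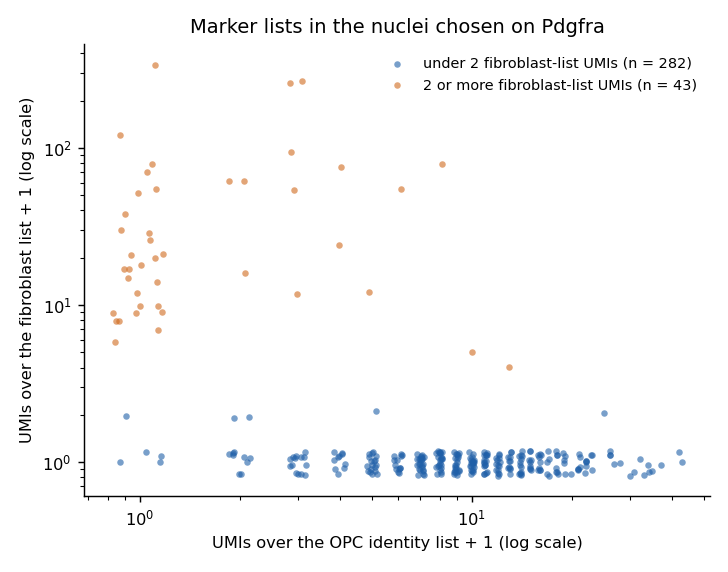
Each point is 1 of the 325 nuclei chosen on Pdgfra, with its UMIs over the 26 OPC identity genes (horizontal) and over the 13 fibroblast genes (vertical), both plus 1 on log scales and with small random offsets so that points do not hide each other. The 282 OPC-like nuclei (blue) lie along the bottom with 0 or 1 fibroblast UMI, and the 43 fibroblast-marker nuclei (orange) lie above them, 28 of them at the far left with no OPC identity UMI.

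RNA of other cell types was present in the OPC-like nuclei. At least 3 UMIs of a list of 14 astrocyte genes were found in 113 of the 282 OPC-like nuclei, of 12 excitatory neuron genes in 42, of 19 mature oligodendrocyte genes in 30, of 14 inhibitory neuron genes in 29 and of 12 microglia genes in 7. None held 3 UMIs of the 10 endothelial or the 10 pericyte genes. The summed level of the excitatory list in the OPC-like nuclei was 16.1 to 27.4 UMIs per 10000 over the libraries. Its defining gene Slc17a7, the vesicular glutamate transporter of cortical pyramidal neurons, stood at 1.24 UMIs per 10000, against 3.17 in the 15013 barcodes of 200 or fewer UMIs, which can hold free RNA or shallow nuclei, in shares that were not tested. Levels here are UMIs of a gene per 10000 cellular UMIs summed over the nuclei of a group. The part of such RNA in the levels below was not tested. Doublets were not removed. Of the groups used for comparison, excitatory nuclei had at least 2 Slc17a7 UMIs and none of the rule's genes, and astrocyte nuclei had at least 3 UMIs of Aqp4, Gja1 and Slc1a3 together, under 2 fibroblast UMIs, no UMI of Pdgfra, Cldn5, Mag or Mog and at most 1 of Gad1 and Gad2. Oligodendrocyte and astrocyte nuclei thus lack Pdgfra by choice, and the part of that choice in their levels of other OPC genes was not tested.

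Lhfpl3, Olig2 and Col3a1 are shown by sequence because the first and second were among the genes that set the OPC-like nuclei apart from all others, and the third marked the fibroblast-marker nuclei. Each run covers 250 bases before and 50 bases after the RefSeq start of the gene in GRCm38.p6. Capitals mark 2 short motifs, searched on both strands. The first is the E-box CAGCTG, to which basic helix-loop-helix factors such as Olig2 are known to bind, and the second is ACAAAG, a core letter string of SOX sites.
Lhfpl3 promoter, chr5:22745804-22746103, plus strand: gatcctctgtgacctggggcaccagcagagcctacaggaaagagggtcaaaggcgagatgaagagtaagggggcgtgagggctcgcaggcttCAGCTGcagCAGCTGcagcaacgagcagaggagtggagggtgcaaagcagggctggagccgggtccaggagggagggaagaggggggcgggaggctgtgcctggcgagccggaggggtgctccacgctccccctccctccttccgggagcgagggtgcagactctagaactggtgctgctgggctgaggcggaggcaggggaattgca
Olig2 promoter, chr16:91225300-91225599, plus strand: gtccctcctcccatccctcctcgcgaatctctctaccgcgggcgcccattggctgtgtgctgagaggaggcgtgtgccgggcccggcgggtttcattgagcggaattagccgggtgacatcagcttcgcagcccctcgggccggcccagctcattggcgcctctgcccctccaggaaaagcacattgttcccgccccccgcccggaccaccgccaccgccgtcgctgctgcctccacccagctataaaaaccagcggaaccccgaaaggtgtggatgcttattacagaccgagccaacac
Col3a1 promoter, chr1:45311288-45311587, plus strand: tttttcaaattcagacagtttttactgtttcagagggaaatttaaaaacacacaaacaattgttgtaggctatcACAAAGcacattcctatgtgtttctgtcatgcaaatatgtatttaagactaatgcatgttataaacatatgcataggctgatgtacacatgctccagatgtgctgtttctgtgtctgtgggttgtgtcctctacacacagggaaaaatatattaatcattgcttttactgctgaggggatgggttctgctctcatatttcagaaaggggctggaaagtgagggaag
The Lhfpl3 window held CAGCTG at 2 places, the Olig2 window held neither motif, and the Col3a1 window held ACAAAG once. CAGCTG was present in 15.6% of the windows of 17655 genes, and in 3 of the 20 OPC identity genes with a window (15.0%). ACAAAG was present in 17.1% of all windows, and again in 3 of 20 OPC identity genes. The share among OPC identity genes was thus close to that of all genes for both motifs. A match is a string of letters and not a bound site, and windows without one say only that these letters are missing there.

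Across the transcriptome, the genes that most set the 325 nuclei apart came from both classes. Of 6190 genes with at least 1000 UMIs over all kept nuclei, 443 (7.16%) were more than 2-fold higher in the chosen nuclei than in all other kept nuclei and 1254 (20.3%) were more than 2-fold lower. The 25 genes with the largest ratio among those with 50 or more UMIs in the members included Gpr17, Matn4, Olig2, Cacng4, Tmem100, Cspg4, Vcan, Lhfpl3, Olig1, Ptprz1, Ednrb and Tgfa. These 12 drew most of their UMIs from the OPC-like nuclei. The other 13 drew most of theirs from the 43 fibroblast-marker nuclei, among them Lum, which had 74 of 74 UMIs there, Cyp1b1 with 131 of 131, Igf2 with 273 of 273, Col1a2 with 519 of 519, Dcn with 276 of 277 and Apod with 288 of 289. For the OPC-like nuclei alone, 382 genes (6.17%) were more than 2-fold higher than in all other kept nuclei and 1054 (17.0%) lower. A gene at the minimum of 1000 UMIs would be expected to give only 4.88 UMIs in these nuclei, so the lower counts rest on few transcripts. The median gene stood at −0.22 on the log2 scale. The OPC-like nuclei are therefore described first, and the fibroblast-marker nuclei after them.

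The transcription factors of the oligodendrocyte lineage were far above other nuclei in the OPC-like nuclei. Olig1 had 483 UMIs, and its level was 16.7, 32.5 and 57.0 UMIs per 10000 in the lowest, median and highest library. In oligodendrocyte nuclei the same values were 12.1, 16.7 and 24.4, and in all other kept nuclei they were 0.560, 0.709 and 0.955. Olig1 was thus higher than in other nuclei in every library without overlap, by 46.9-fold (42.4 to 51.8). Against oligodendrocytes it was 2.05-fold higher (1.83 to 2.29) and higher in each of the 10 libraries, although the ranges overlapped. Olig2, which is needed for the specification of the lineage, was 63.7-fold (53.1 to 76.1) above other nuclei and 3.56-fold (2.86 to 4.43) above oligodendrocytes. Its library values of 4.67, 11.9 and 20.4 overlapped those of oligodendrocytes, at 1.22, 3.08 and 5.36, only at the low end. Sox10, which acts throughout the lineage, stood differently, at 2.67, 7.47 and 12.4 UMIs per 10000 in OPC-like nuclei against 5.18, 8.54 and 15.6 in oligodendrocytes. It was higher in the OPC-like nuclei in only 3 of 10 libraries, with a ratio of 0.760 (0.599 to 0.955). Nkx2-2, another factor of the lineage, had 10 UMIs and was 33.9-fold (15.5 to 66.8) above other nuclei. Sox8 and Sox6 gave 8 and 4 UMIs, too few for a level per library.

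Several surface and matrix genes of OPCs were far above oligodendrocytes. Ptprz1, a receptor tyrosine phosphatase that binds the matrix protein tenascin-R, had 629 UMIs and a level of 27.2, 50.2 and 68.9 UMIs per 10000 over the libraries. In oligodendrocytes it stood at 0, 0.681 and 1.61, in all other kept nuclei at 0.795, 1.05 and 1.47, and in astrocyte nuclei at 14.9, 23.4 and 25.9. The OPC-like values thus lay above those of every group named here in all libraries, and the ratio to oligodendrocytes was 74.7 (52.3 to 110). Cspg4, the NG2 proteoglycan, had 75 UMIs and values of 2.00, 5.53 and 14.9. That was 54.7-fold (41.8 to 70.9) above other nuclei, while oligodendrocytes had 2 UMIs in all. Vcan, which encodes the chondroitin sulfate proteoglycan versican, had 72 UMIs and values of 2.96, 4.81 and 12.3. It was 48.2-fold (36.8 to 62.5) above other nuclei. The related proteoglycans Bcan, Ncan and Cspg5 were 24.3-fold (21.1 to 27.8), 3.75-fold (3.16 to 4.42) and 9.75-fold (8.94 to 10.6) above other nuclei. Astrocytes share them, with Bcan at 10.8, 13.6 and 15.8 UMIs per 10000 over the libraries of astrocyte nuclei and 8.04, 19.5 and 31.0 over those of OPC-like nuclei, which overlap. Cspg5 did not overlap, at 15.8, 19.6 and 23.9 against 24.7, 41.8 and 71.9. Tnr, tenascin-R itself, was 11.5-fold (9.73 to 13.6) above all other kept nuclei and Matn4, a matrilin, 79.5-fold (60.6 to 103) above them. Of 18 lectican, tenascin and matrix genes, 9 passed the minimum of 1000 UMIs. Of these, 6 were more than 2-fold higher than in other nuclei and 1 was lower, beside 6.17% and 17.0% of all genes, with a median of 2.41 on the log2 scale. The summed level of the list was 148 UMIs per 10000 in the OPC-like nuclei, 69.2 in astrocyte nuclei and 7.25 in oligodendrocytes.

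Among genes known mainly as OPC markers, Cacng4, a regulatory protein of AMPA-type glutamate receptors, had 153 UMIs and library values of 4.00, 10.4 and 23.2 UMIs per 10000. No UMI of it was found in the 816 oligodendrocyte nuclei, which makes it at least 194-fold higher in the OPC-like nuclei (against a floor of 3 UMIs over the oligodendrocytes). Lhfpl3, shown above by its promoter, had 127 UMIs and was 50.3-fold (41.1 to 61.2) above other nuclei and 241-fold above oligodendrocytes. That last ratio rests on 2 UMIs in the oligodendrocytes, and its interval runs from 65.4 to 2013. C1ql1, a secreted C1q-like protein, and Neu4, a sialidase, had 41 and 36 UMIs and none in oligodendrocytes. C1ql1 was 135-fold (88.5 to 203) above other nuclei, and Neu4 was 163-fold (102 to 258) above them. Neu4 had no UMI in 1 library, so that its libraries overlapped those of other nuclei. Of the 26 OPC identity genes, 12 passed the minimum of 1000 UMIs. Among them 9 were more than 2-fold higher than in other nuclei, beside 6.17% of all genes, and none lower, with a median of 2.85 on the log2 scale. Against oligodendrocytes 12 of 12 were more than 2-fold higher, beside 14.2% of all genes, with a median of 3.22. The weakest of the 26 against other nuclei were Pcdh15, at 1.27 (0.749 to 2.01), and Rprm, at 1.47 (0.895 to 2.27), whose intervals include 1.

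**Figure D2:**
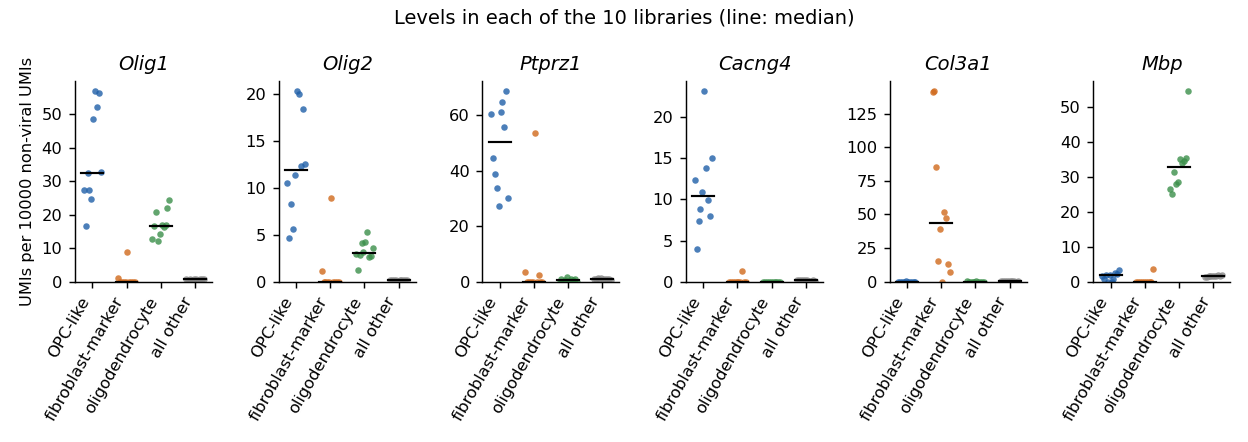
Levels of 6 genes in UMIs per 10000 cellular UMIs (vertical, linear, a scale for each gene), with 1 point for each of the 10 libraries and a line at the median, in OPC-like, fibroblast-marker, oligodendrocyte and all other kept nuclei. Ptprz1 and Cacng4 stand high in the OPC-like nuclei, apart from 1 fibroblast-marker library at 53.6 for Ptprz1, Olig1 and Olig2 overlap between OPC-like and oligodendrocyte nuclei, Col3a1 stands out in the fibroblast-marker nuclei and Mbp in the oligodendrocytes.

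These genes were read in only part of the OPC-like nuclei. Ptprz1 had a UMI in 78.4% of them (73.1 to 83.0), Olig1 in 69.9% (64.1 to 75.2), Gpr17 in 34.8% (29.2 to 40.6), Cspg4 in 19.1% (14.7 to 24.2) and Vcan in 16.7% (12.5 to 21.5). In excitatory nuclei, which should lack them, the shares were 2.36%, 1.18%, 0.281%, 0.450% and 1.01%, at a median of 1209 UMIs against 341.5 in the OPC-like nuclei. When every nucleus was thinned to 300 UMIs, leaving out 110 OPC-like and 65 excitatory nuclei below that depth, Ptprz1 stood at 67.2% and 0.765%. Cspg4 stood at 15.9% and 0.108% on that footing.

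Gene for gene, the myelin program separated the OPC-like nuclei from oligodendrocytes in the other direction. Against oligodendrocytes, 881 of 6190 genes (14.2%) were more than 2-fold higher and 728 (11.8%) more than 2-fold lower in the OPC-like nuclei. Of 19 mature oligodendrocyte genes, 11 passed the minimum and all 11 were lower, with a median of −5.33 on the log2 scale beside 0.13 for all 6190 genes. Mbp, myelin basic protein, stood at 0, 1.80 and 3.34 UMIs per 10000 in the OPC-like nuclei and at 25.2, 32.7 and 54.6 in oligodendrocytes, without overlap. The barcodes of 200 or fewer UMIs stood at 1.85, 3.60 and 4.54. Cnp, an enzyme of the myelin sheath, had a ratio of 0.0249 (0.0144 to 0.0400) to oligodendrocytes. The absence of Mag and Mog was part of the choice, so this gap is a description. Over all 325 nuclei, 756 genes (12.2%) were more than 2-fold higher and 679 (11.0%) lower than in oligodendrocytes, and the 10 lowest included further genes of oligodendrocytes. Ermn, Mobp and Opalin had 1 UMI each in the members, at ratios of 0.00498 (0.000126 to 0.0279), 0.00556 (0.000140 to 0.0311) and 0.00725 (0.000183 to 0.0406), and each lost that UMI with 1 library left out (1-1, 2-5 and 1-5). Car2 had 5 UMIs and a ratio of 0.00861 (0.00279 to 0.0201), or 0.00410 without library 1-3. Mal had 10 UMIs and a ratio of 0.00872 (0.00418 to 0.0161), or 0.001003 without library 1-5. Tmem88b had no UMI in the members and 641 in oligodendrocytes, which makes it at least 80.7-fold lower.

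A few genes of the myelin list were nevertheless present in the OPC-like nuclei. Ugt8a, which makes the myelin lipid galactocerebroside, had 50 UMIs and was 7.27-fold (5.37 to 9.63) above all other kept nuclei, though below oligodendrocytes at a ratio of 0.272 (0.200 to 0.363). Enpp2, which encodes autotaxin, had 78 UMIs and was 2.24-fold (1.77 to 2.80) above other nuclei. Gjc3, a glial connexin, had 23 UMIs and was 16.6-fold (10.4 to 25.4) above them. Over this list 2 genes were more than 2-fold higher and 5 lower than in other nuclei, among the 11 that passed the minimum, beside 6.17% and 17.0% of all genes. Pllp, plasmolipin, named after its values were seen, was 16.9-fold (14.0 to 20.3) above other nuclei. It stood at 4.83, 9.56 and 17.6 UMIs per 10000, and its libraries overlapped those of oligodendrocytes, at 8.12, 10.2 and 13.2.

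Of 16 genes of committed and newly formed oligodendrocytes, Gpr17 stood apart. Gpr17, a receptor that marks the passage from precursor to myelinating cell, had 176 UMIs in the OPC-like nuclei and 163 in all 32010 other kept nuclei, a ratio of 220 (177 to 274). Its library values of 1.76, 13.2 and 24.1 UMIs per 10000 did not overlap those of oligodendrocytes, at 0, 0 and 0.603. Enpp6, Casr and Myrf, which mark newly formed oligodendrocytes, had no UMI in the OPC-like nuclei. For Enpp6, with 105 UMIs in the oligodendrocytes, that amounts to at least 9.21-fold less than in the oligodendrocytes by the floor of 3 UMIs. Bcas1 had 8 UMIs, 11.6-fold (4.93 to 23.6) above other nuclei and at a ratio of 0.533 (0.220 to 1.12) to oligodendrocytes. Only 3 genes of this list passed the minimum, of which 1, Fyn, a kinase that acts in early myelination, was more than 2-fold higher, at 2.69 (1.84 to 3.81), beside 6.17% of all genes. Against oligodendrocytes 1 of the 3 was higher and 2 were lower.

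The 98 OPC-like nuclei with a Gpr17 UMI were compared with the 184 without. Both had a similar depth, with medians of 364.5 and 333 UMIs. Their Pdgfra levels, which the choice of nuclei used, were 78.7 and 76.5 UMIs per 10000. Besides Pdgfra and Gpr17, 48 genes with a UMI were compared, of which 8 had an interval above 1 and 1 an interval below 1. These were chosen genes, most of them from the OPC and oligodendrocyte lists. The share over all genes was not computed for this split, so the count cannot be read against it. Of the OPC-like nuclei, 64 had no Olig1 or Olig2 UMI, and how they fell on both sides of the split was not tested. A difference in how many nuclei were OPCs cannot be told apart here from a difference among OPCs. Zfp488, a zinc finger protein of the lineage, had 10 UMIs in the nuclei with Gpr17 and 1 in those without, a ratio of 16.8 (2.39 to 730). The ratio was 2.36 (1.16 to 4.91) for Neu4, 1.95 (1.01 to 3.81) for C1ql1 and 1.88 (1.15 to 3.08) for Vcan. It was 1.61 (1.04 to 2.49) for Sox10, 1.60 (1.15 to 2.22) for Tnr, 1.31 (1.09 to 1.57) for Olig1 and 1.27 (1.08 to 1.49) for Ptprz1. In the other direction, Ccnd1, the cyclin that drives entry into the cell cycle, stood at 3.93 UMIs per 10000 in nuclei with Gpr17 and 8.75 in those without, a ratio of 0.449 (0.260 to 0.743). Cspg4, Bcan, Lhfpl3 and Luzp2 had ratios from 0.963 to 1.06, with intervals that include 1.

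The nuclei with Gpr17 came more often from library set 2, with 42 from set 1 and 56 from set 2, against 110 and 74 without, and Olig1 was itself higher in set 2. The ratios were therefore also taken within each set, a step chosen after the pooled values were seen. Ptprz1 stood at 0.904 (0.705 to 1.15) in set 1 and 1.61 (1.28 to 2.03) in set 2. Neu4 stood at 1.21 (0.362 to 3.68) and 3.93 (1.36 to 13.8), Vcan at 1.21 (0.540 to 2.60) and 2.43 (1.23 to 5.04), and Tnr at 1.23 (0.776 to 1.94) and 2.24 (1.32 to 3.88). Olig1 stood at 1.15 (0.853 to 1.53) and 1.28 (1.00 to 1.64). Sox10 stood at 1.93 (1.01 to 3.68) and 1.26 (0.678 to 2.32). Ccnd1 was below 1 in both, at 0.542 (0.251 to 1.07) and 0.347 (0.146 to 0.739). Zfp488 had 5 UMIs against 0 in set 1 and 5 against 1 in set 2. In set 1 the interval excluded 1 for Sox10 and Zfp488 among the 8 genes, and in set 2 it did so for Vcan, Olig1, Tnr, Ptprz1 and Neu4. C1ql1 stood at 1.62 (0.554 to 4.55) and 2.04 (0.822 to 5.34). A nucleus without a Gpr17 UMI may still express the gene at this depth, and the intervals are not corrected for the number of genes.

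Genes of the PDGF pathway other than Pdgfra itself showed no common direction. Of the ligands, Pdgfa, which feeds the receptor of OPCs, had 11 UMIs in the OPC-like nuclei, and its ratio to other nuclei was 0.710 (0.354 to 1.27). Pdgfb had no UMI in them. Pdgfrb, the receptor of pericytes, had a level of 0.0732 UMIs per 10000. The counts of list members below are read against the 6.17% of all genes that were higher than in other nuclei and the 17.0% that were lower. Of 34 pathway genes, 23 passed the minimum, of which 1 was more than 2-fold higher and 3 were lower than in other nuclei, with a median of −0.15 on the log2 scale beside −0.22 for all genes. The higher gene was Stat3, a transcription factor downstream of growth factor receptors, at 2.19 (1.37 to 3.32). Among the lower ones were the kinases Akt1 and Mapk3, which had 4 and 2 UMIs. The feedback inhibitors of receptor tyrosine kinases lay below the minimum, so they are not in this count. Spry1 had 13 UMIs and a ratio of 10.5 (5.52 to 18.3), and Spry4 had 15 UMIs and a ratio of 6.48 (3.60 to 10.8). Gab1, an adaptor of the same receptors, had 19 UMIs and a ratio of 5.96 (3.57 to 9.39), and it was below oligodendrocytes at 0.403 (0.237 to 0.648).

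Other growth factor and developmental pathways gave few transcripts. Of 16 further growth factor receptors, 12 passed the minimum, with 3 more than 2-fold higher and 2 lower, the latter near the 17.0% of all genes. Fgfr1 was 2.20-fold (1.26 to 3.59) above other nuclei, and Fgfr2, which oligodendrocytes express at 6.78 UMIs per 10000, had no UMI in the OPC-like nuclei. Erbb3, a neuregulin receptor, had 11 UMIs and was 18.2-fold (8.86 to 33.7) above other nuclei, at a ratio to oligodendrocytes of 0.696 (0.330 to 1.34). Of 20 Notch and Wnt genes, 5 passed the minimum, with none higher and 1 lower. Hes5, a repressor that Notch signalling induces, lay below the minimum with 19 UMIs, and was 20.6-fold (12.1 to 33.0) above other nuclei and 24.1-fold (7.08 to 127) above oligodendrocytes. Of 11 cholesterol synthesis genes that passed, 1 was more than 2-fold higher than in other nuclei and none lower, with a median of 0.46 on the log2 scale. Ednrb, the endothelin receptor B, which is known to slow the maturation of OPCs, stood at 4.45, 9.29 and 18.3 UMIs per 10000 against 0, 0 and 0.820 in oligodendrocytes, and at 5.02, 7.02 and 7.91 in astrocyte nuclei. Tgfa, a ligand of the EGF receptor, was 28.7-fold (21.0 to 38.4) above other nuclei.

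**Figure D3:**
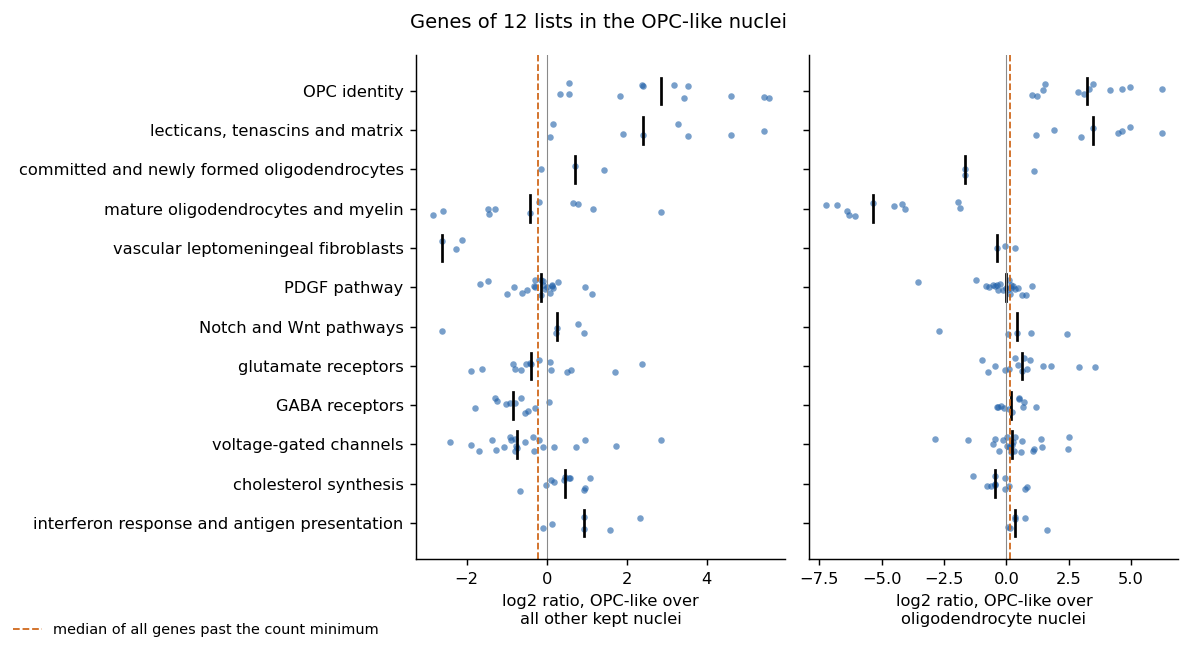
Ratio of the level in OPC-like nuclei to that in all other kept nuclei (left) and in oligodendrocyte nuclei (right), on the log2 scale, for the genes of 12 lists with at least 1000 UMIs over all kept nuclei. Each point is a gene with a UMI in both groups, black bars are list medians with genes at 0 included, and dashed lines are the medians of all 6190 genes, −0.22 and 0.13. The OPC identity and matrix lists lie to the right in both panels, and the myelin list lies far to the left against oligodendrocytes only.

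OPCs carry receptors for glutamate and GABA. Gria2, an AMPA receptor subunit, stood at 14.2, 18.0 and 22.3 UMIs per 10000 in the OPC-like nuclei, below all other kept nuclei at 23.8, 25.4 and 27.0, without overlap. It was higher than in oligodendrocytes in each of the 10 libraries, although the ranges overlapped, at 8.35, 10.9 and 15.9. Its range also overlapped that of the low-UMI barcodes, at 14.3, 16.8 and 18.7. The part of free RNA in this level was not tested. Gria3 was 1.52-fold (1.26 to 1.81) above other nuclei and 2.77-fold (2.18 to 3.50) above oligodendrocytes. Of 24 glutamate receptor genes measured, 15 passed the minimum, with 2 more than 2-fold higher than in other nuclei and 2 lower. The higher ones were Grin3a, an NMDA receptor subunit of low calcium permeability, at 5.19 (3.74 to 7.03), and Grid1, at 3.29 (2.24 to 4.65). Against the low-UMI barcodes Grin3a stood at 1.61, 3.16 and 9.19 over the libraries compared with 0.305, 0.523 and 0.716, without overlap. Of 14 GABA receptor genes, 12 passed, with none higher and 5 lower (17.0% of all genes were lower), and a median of −0.84. Gabrg1, a GABA-A subunit that glia express, lay below the minimum with 22 UMIs and was 9.10-fold (5.65 to 13.9) above other nuclei. Of 26 voltage-gated and inward rectifier channels, 22 passed, with 2 higher, near the 6.17% of all genes, and 6 lower. Kcnj10, the inward rectifier Kir4.1 of glia, was 7.30-fold (5.39 to 9.68) above other nuclei, but at ratios of 0.696 (0.504 to 0.943) to oligodendrocytes and 0.475 (0.348 to 0.636) to astrocyte nuclei. It was higher than in oligodendrocytes in 2 of 10 libraries. Kcnd3, an A-type potassium channel, was 3.32-fold (2.39 to 4.50) above other nuclei. Grin2c was not analysed here.

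Some genes fixed as markers of other cell types were also high in the OPC-like nuclei. Nxph1, a neurexophilin on the inhibitory neuron list, had 60 UMIs and was 8.41-fold (6.39 to 10.9) above all other kept nuclei. Its values of 2.67, 3.96 and 11.5 UMIs per 10000 did not overlap those of other nuclei, at 0.450, 0.527 and 0.592. The inhibitory neuron list as a whole had 366 UMIs in the OPC-like nuclei, of which 75 lay in 1 nucleus, and of its 10 genes past the minimum 2 were more than 2-fold higher and 4 lower. On the astrocyte list, 8 of 14 genes passed, with 3 higher and none lower. Slc1a3, the glutamate transporter GLAST, was 3.87-fold (3.27 to 4.53) above other nuclei and stood at 11.3 UMIs per 10000 against 78.6 in astrocyte nuclei, which were chosen in part on it. Over the libraries it stood at 4.92, 9.94 and 23.5 in the OPC-like nuclei and at 62.0, 78.0 and 90.8 in the astrocyte nuclei, without overlap. Of the endothelial list 7 of 8 genes past the minimum were more than 2-fold lower, of the excitatory list 7 of 12, and of the microglia list 2 of 4, against 17.0% of all genes.

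A pair of class I genes stood above other nuclei in the OPC-like nuclei. H2-D1, a class I major histocompatibility gene, was 5.05-fold (3.89 to 6.44) and H2-K1 3.01-fold (2.17 to 4.06) above other nuclei in the OPC-like nuclei. H2-D1 stood at 2.31, 4.95 and 11.2 UMIs per 10000 over the libraries, and all other kept nuclei at 0.725, 0.945 and 1.33, without overlap. Near-identical class I genes can share reads, so the split between H2-D1 and H2-K1 is uncertain. Over 24 interferon response and antigen presentation genes, 6 passed the minimum, with 2 higher, none lower and 4 within 2-fold, and a median of 0.94 on the log2 scale. Against oligodendrocytes 1 of the 6 was higher, near the 14.2% of all genes. The summed level of the list was 22.7 UMIs per 10000 in the OPC-like nuclei, 26.1 in astrocyte nuclei, 14.0 in oligodendrocytes and 10.1 in all other kept nuclei. H2-K1 and B2m were each higher than in other nuclei in 8 of 10 libraries. B2m, the light chain of class I molecules, was 1.91-fold (1.49 to 2.41) above other nuclei in the OPC-like nuclei and 7.64-fold (6.33 to 9.13) in the fibroblast-marker nuclei. No uninjected mice were analysed here, so a response to the virus cannot be told apart from the usual level in these cells. Of 16 immediate early and stress genes, 12 passed, with 2 higher and 5 lower, against 6.17% and 17.0% of all genes. Jun was 2.26-fold (1.56 to 3.17) above other nuclei, and Fos was at a ratio of 0.403 (0.162 to 0.832).

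OPCs are the main dividing cells of the adult cortex, so genes of the cell cycle were summed. None of them passed the minimum. The 19 genes of S phase measured gave 62 UMIs in the OPC-like nuclei, a level of 4.54 UMIs per 10000 (3.48 to 5.82) against 1.91 (1.86 to 1.96) in all other kept nuclei, 1.98 (1.62 to 2.41) in oligodendrocytes and 1.54 (1.36 to 1.73) in low-UMI barcodes. Over the libraries this was 0.770, 3.99 and 11.7, which overlapped the 1.77, 1.91 and 2.04 of other nuclei, and in set 2 the median library stood at 1.41 against 1.85. The 19 genes of G2 and M phase gave 61 UMIs, a level of 4.46 (3.42 to 5.74) against 1.23 (1.19 to 1.27) in other nuclei, and libraries of 0, 3.15 and 8.04 overlapped those of other nuclei, at 1.12, 1.21 and 1.41. Oligodendrocytes stood at 4.12 (3.59 to 4.71) on that list. Of the OPC-like nuclei, 12 had 2 or more UMIs of the G2 and M genes, which is 4.26% (2.22 to 7.31). No nucleus held more than 7 of these UMIs, and without the highest nucleus the G2 and M level was 3.97. Top2a, a topoisomerase of dividing cells, was found in 4.26% of the OPC-like nuclei (2.22 to 7.31), at a level of 1.46 against 0.0881 in other nuclei and 0 in oligodendrocytes. Ccnd1 was broader, with 95 UMIs in 23.4% of the nuclei and 26.2-fold (20.9 to 32.5) above other nuclei. Atad2 and Mki67 were not analysed here, and cycling was not called from these sums.

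The 43 fibroblast-marker nuclei had their own leading genes beyond the list that defined them. Aqp1, a water channel, had 35 UMIs and was 303-fold (192 to 472) above all other kept nuclei. Cyp1b1, a cytochrome P450, was 272-fold (218 to 339) and Aldh1a2, an enzyme that makes retinoic acid, 218-fold (156 to 302) above them. The collagens Col13a1, Col18a1 and Col15a1 were 206-fold (125 to 332), 195-fold (140 to 269) and 131-fold (91.6 to 184) above them. Bmp7, a bone morphogenetic protein, was 88.8-fold (62.0 to 124) and Nid1, a basement membrane protein, 68.6-fold (54.9 to 84.9) above them. Of the genes that chose them, Lum stood at 487-fold (347 to 685) and Col3a1 at 157-fold (141 to 176), given as a description. Col3a1 was uneven over the libraries, at 0, 43.4 and 142 UMIs per 10000, with 2 to 6 of these nuclei in each library. Pdgfra, on which all members were chosen, had a median of 3 UMIs per nucleus in both classes. Its level was 77.4 UMIs per 10000 in the OPC-like nuclei and 25.9 in the deeper fibroblast-marker nuclei. The astrocyte list stood at 114 UMIs per 10000, which is 3.67-fold above other nuclei, and 4 of its 8 genes past the minimum were more than 2-fold higher and 3 lower, beside 11.9% and 46.6% of all genes in these nuclei. Of the 43 nuclei, 18 had at least 3 UMIs of Aqp4, Gja1 and Slc1a3. Gja1, a connexin that fibroblasts also express, was 6.68-fold (5.20 to 8.44) and Slc1a3 4.84-fold (3.86 to 6.00) above other nuclei. Aqp4, the water channel of astrocyte endfeet, had no UMI, while Slc1a2 and Aldoc, defining genes of astrocytes, stood at 1.85 and 0.672, at ratios to other nuclei of 0.116 (0.0579 to 0.207) and 0.714 (0.194 to 1.83). Of the myelin list, Apod made up 288 of 444 UMIs. Cell cycle genes stood at 12.4 and 10.3 UMIs per 10000 for the S and the G2 and M list, but 1 nucleus of 7629 UMIs held 53 and 49 of them. Without the 2 highest nuclei the levels were 1.68 and 0.211. Among all 32335 kept nuclei, 828 had at least 2 fibroblast UMIs, so the 43 are those that also passed on Pdgfra.

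The library sets differed for part of the OPC genes within the OPC-like nuclei. Set 1 gave 152 of these nuclei and set 2 gave 130, with median depths of 344 and 331 UMIs. Most of the 24 OPC-like nuclei above 1000 UMIs came from set 1, and many of those held few OPC identity UMIs for their depth. Such nuclei lower a pooled level, and their part in the differences between the sets was not tested. Of 402 genes with at least 50 UMIs in the OPC-like nuclei, 9 (2.24%) were higher in each library of set 2 than in each library of set 1, and 3 (0.746%) were higher in set 1. Among the 9 were Gpr17 and 3 of the 14 OPC identity genes with that many UMIs, which were Olig1, Olig2 and Cspg4, while the other 11 overlapped. The summed OPC identity list stood at 166 in set 1 and 270 in set 2, with libraries of 142 to 222 and 197 to 300, which overlapped, and the matrix list at 126 and 178. Gpr17 stood at 1.76 to 11.4 UMIs per 10000 in set 1 and at 15.0 to 24.1 in set 2. A Gpr17 UMI was found in 27.6% (20.7 to 35.5) of the OPC-like nuclei of set 1 and 43.1% (34.4 to 52.0) of those of set 2. Olig2 stood at 4.67 to 11.4 and 12.4 to 20.4, and Olig1 at 16.7 to 32.4 and 32.6 to 57.0. Cspg4 stood at 2.00 to 5.43 and 5.62 to 14.9. The other 5 were Sulf2, a heparan sulfate sulfatase, Marcks, Nxph1, Arl2bp and Gm2a. Higher in set 1 were Prkacb, a catalytic subunit of protein kinase A, at 4.00 to 8.89 against 0 to 1.15, R3hdm1 and Rian. Ptprz1 overlapped between the sets, at 27.2 to 60.6 and 30.1 to 68.9, as did Ccnd1. In oligodendrocytes Olig1 overlapped between the sets, at 12.1 to 20.7 and 16.4 to 24.4.

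Other measures moved with the sets. The Pdgfra level, on which the nuclei were chosen, was 69.3 UMIs per 10000 in set 1 and 89.0 in set 2, and 72.4% (64.5 to 79.3) and 83.1% (75.5 to 89.1) of the OPC-like nuclei had an Olig1 or Olig2 UMI. The microglia list stood at 5.83 and 1.97 and the inhibitory list at 31.4 and 20.2, both with overlapping libraries. The excitatory list stood at about the same level, 20.9 and 22.2. The labels tie no animal to a set, so animal, injection and library preparation cannot be told apart, and the part of foreign RNA in these differences was not tested.

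**Figure D4:**
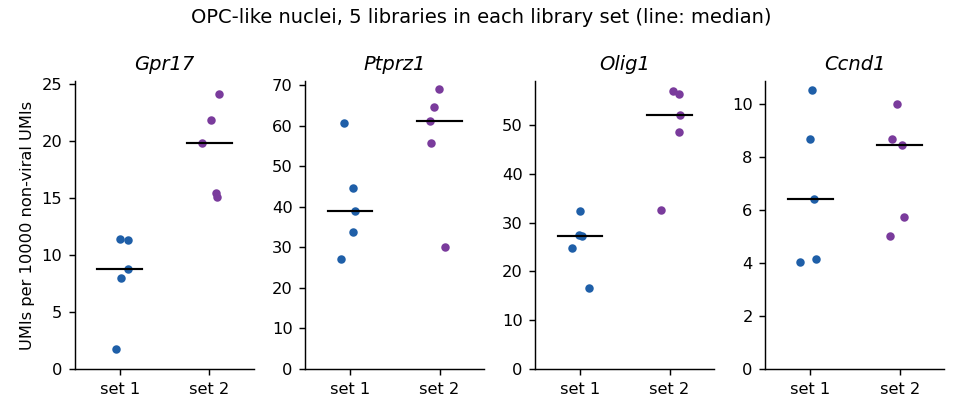
Levels of Gpr17, Ptprz1, Olig1 and Ccnd1 in the OPC-like nuclei, in UMIs per 10000 cellular UMIs (vertical, linear), with 1 point for each of the 5 libraries of library set 1 and of library set 2 and a line at the median. Gpr17 and Olig1 do not overlap between the sets, and Ptprz1 and Ccnd1 do.

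The nuclei chosen on Pdgfra held fewer viral transcripts per nucleus than the other kept nuclei, and matching the depth narrowed the difference. The 325 nuclei had 5.27 viral UMIs per nucleus, with a median of 2, against 15.9 and a median of 5 in all other kept nuclei. The means were 5.64 in the OPC-like nuclei, 2.81 in the fibroblast-marker nuclei, 8.05 in oligodendrocytes, 8.50 in astrocyte nuclei and 20.4 in excitatory nuclei. These groups differ in depth, and with every nucleus thinned to 300 UMIs the means were 3.97 in the OPC-like nuclei, 1.14 in the fibroblast-marker nuclei, 2.95 in oligodendrocytes, 4.13 in astrocyte nuclei, 4.47 in excitatory nuclei and 5.42 in all other kept nuclei. The order of OPC-like nuclei and oligodendrocytes thus turned in these pooled means, and the gap to excitatory nuclei was smaller than without thinning. The OPC-like mean includes 2 nuclei of library 1-5, of 341 and 345 UMIs, with 172 and 64 viral UMIs. Without them the thinned OPC-like mean would lie below 2.95, the mean of oligodendrocytes with all nuclei kept, so the turned order rests on them. Per 1000 cellular UMIs, OPC-like nuclei and oligodendrocytes held 16.2 and 13.3 viral UMIs in set 1, and 5.02 and 12.0 in set 2. Excitatory nuclei held 18.2 in set 1 and 12.9 in set 2, and all other kept nuclei 21.5 and 14.9. The gap of the OPC-like nuclei to both was thus wider in set 2. The low-UMI barcodes held a mean of 8.53 viral UMIs per barcode. The mean of the OPC-like nuclei was below that of the low-UMI barcodes in 8 of the 10 libraries and above it in libraries 1-4 and 1-5, at ratios of 1.25 and 1.26. In set 2 the ratio was 0.201 to 0.353. How much of the viral RNA was made in these nuclei and how much lay free in the droplets was not tested. At least 1 viral UMI was present in 77.5% of the 325 members (72.6 to 82.0), in 86.2% of the other kept nuclei and in 79.4% of the low-UMI barcodes. Thinned to 300 UMIs, which left out 116 members and 6306 other nuclei, the shares were 66.8% and 73.2%. On that footing the OPC-like nuclei alone stood at 71.8%, close to the other nuclei, the fibroblast-marker nuclei at 43.5% and oligodendrocytes at 63.2%. Means rest on few nuclei: the highest held 172 viral UMIs, 10.0% of the members' total, and 15 of the 325 held 20 or more. With the 1% richest in viral UMIs removed from each group, the means were 4.15 in the members and 13.1 in the other kept nuclei.

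Depth and library set moved with these means. Among nuclei of 200 to 300 UMIs, the OPC-like nuclei had a mean of 3.05 viral UMIs and oligodendrocytes 3.21, while in nuclei above 1000 UMIs they had 15.8 and 30.7. Between 300 and 1000 UMIs the OPC-like mean was above that of oligodendrocytes in each of 3 depth classes and below that of all other kept nuclei. In the class of 300 to 400 UMIs the means were 6.48 and 3.89, and both medians were 2. The OPC-like nucleus with 172 viral UMIs lies in this class, and with the oligodendrocytes unchanged the order of the means rests on it. From 600 to 1000 UMIs the means were 6.06 and 4.39. That order rests in the same way on 1 OPC-like nucleus of library 1-5 with 61 viral UMIs. The mean per library was 3.66, 8.20 and 12.4 in set 1 and 1.12, 2.10 and 2.63 in set 2 for the 325 nuclei, without overlap. The other kept nuclei had 15.3, 17.1 and 19.3 in set 1 and 7.54, 15.2 and 17.2 in set 2, and oligodendrocytes 5.96, 7.52 and 12.1 against 2.17, 6.45 and 14.3, both with overlap. Divided by the mean of the other kept nuclei, the members stood at 0.459 in set 1 and 0.146 in set 2. The medians of members and other kept nuclei were 3 and 6 in set 1, and 2 and 3 in set 2. The ratio of the members' mean to that of other nuclei was below 1 in each of the 10 libraries, from 0.113 to 0.641. The ratio of the OPC-like nuclei to oligodendrocytes ran from 0.119 to 1.66, on both sides of 1.

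**Figure D5:**
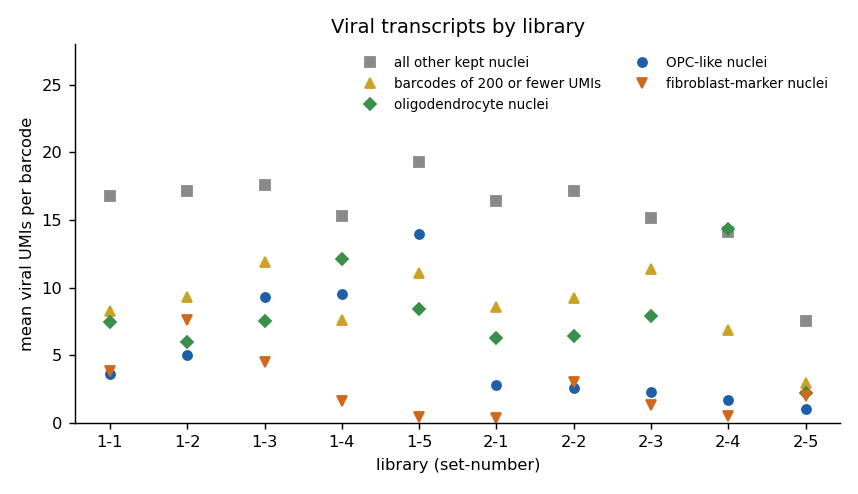
Mean viral UMIs per barcode (vertical, linear) in each of the 10 libraries (horizontal, set and number), for all other kept nuclei, barcodes of 200 or fewer UMIs, oligodendrocyte, OPC-like and fibroblast-marker nuclei. The OPC-like nuclei lie between 3.62 and 14.0 in set 1 and between 1.04 and 2.81 in set 2, below all other kept nuclei in every library.

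At the level of single GREs, 1701 viral UMIs of the 287 GREs were found in the 325 nuclei. The median GRE had 1 UMI, 111 GREs had none and 23 had at least 20. The ratio of the mean in members to that in all other kept nuclei, with 0.01 added to both, had a median of 0.530 and quartiles of 0.327 and 0.829. Among GREs with at least 20 UMIs, 3 were above 1, and GRE269 was the highest. It lies at chr11:36940886-36941185 (GRCm38), in an intron of Tenm2, a teneurin that acts in synaptic adhesion, 295 kb from the 5′ end of that gene, and its sequence is given because it had the highest ratio. Neither CAGCTG nor ACAAAG occurs in the run of these coordinates on either strand, so it has no capitals. By the methods of the study, primers added flanking sequence on each side of a GRE before cloning, and that sequence was not searched.
GRE269, plus strand: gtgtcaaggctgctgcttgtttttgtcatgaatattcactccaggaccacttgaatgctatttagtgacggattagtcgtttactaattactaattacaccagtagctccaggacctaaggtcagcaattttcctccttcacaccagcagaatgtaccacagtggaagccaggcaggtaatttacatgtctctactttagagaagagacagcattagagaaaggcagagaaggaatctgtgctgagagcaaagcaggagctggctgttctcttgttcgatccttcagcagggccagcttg
GRE269 had 65 UMIs in 9 nuclei and a ratio of 2.48, but 54 of these UMIs lay in 1 nucleus, and the ratio without that nucleus was 0.519. GRE284, in a transcript named 3110056K07Rik on chromosome 12, had 24 UMIs, 15 of them in 1 nucleus, with a ratio of 1.43 and of 0.643 without that nucleus. GRE31, within Alpk2, had 34 UMIs, 12 in 1 nucleus, with ratios of 1.13 and 0.767. No GRE with at least 20 UMIs was thus above 1 without its highest nucleus. Of all 287 GREs, 17 were above 1, and the 5 GREs that were hits of the SST screen lay below 1 like most others. Their ratios were 0.462 for GRE12, with 7 UMIs, 0.158 for GRE19, with 1, 0.589 for GRE22, with 22, 0.494 for GRE44, with 29, and 0.367 for GRE80, with 26. Of the 22 UMIs of GRE22, 16 lay in 1 nucleus, and its ratio was 0.239 without library 1-5. That of GRE80 was 0.190 without library 1-4. Of the GREs with at least 20 UMIs, 7 had most of their UMIs in a single nucleus.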

How the data were processed

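snRNA-Seq was measured in 1 sample of V1 nuclei in 10 libraries. The authors' inDrops pipeline aligned reads to GRCm38 with a contig for each viral barcode, and the deposited values are UMI counts per nucleus and gene, without normalization. Its version is not given in the sources used here. Trimmomatic 0.33 and Subread 1.4.6-p3, named in the submitters' processing notes along with mm10, belong to ATAC-Seq as far as the methods say, and ATAC-Seq was not used here. The deposited GRE table was used for coordinates, and its columns of the authors' own specificity values were not used.

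Nuclei with more than 200 UMIs outside the 1164 viral barcode columns were kept. A further column named Vector followed the viral counts (correlation over nuclei of 0.990 to 0.998 by library) and was counted with the 25870 gene columns, which gives the 32335 nuclei of the study, where leaving it out keeps 439 fewer. The kept nuclei held 28016264 UMIs. Counts were summed over the nuclei of a group and divided by the group's UMIs, times 10000. Intervals of ratios, sums and shares are exact at 95%. A group at 0 was set to a floor of 3 UMIs. Genes with at least 1000 UMIs over all kept nuclei were counted past 2-fold. Nuclei were thinned to 300 UMIs, and for viral UMIs this was done by the expected value of each nucleus, without random draws. The calculation was checked on simulated data, with pandas 2.3.3, scipy 1.17.1 and numpy 2.4.6 in python 3.11.15.

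The members, lists and rules were chosen with earlier results of these data known. Named genes are the OPC identity list, of each other list at most the 6 with most UMIs, the 25 genes with the highest ratio to other nuclei, the 10 highest and 10 lowest against oligodendrocytes, the 3 GREs with the highest ratio among those of at least 20 UMIs, and the 5 hits. Some of these genes are not reported here. Others were named after their values were seen. Alternatives covered the Pdgfra cut, depth, fibroblast UMIs, single libraries and sets, the count minimum, the fold, the pseudocount and the nucleus richest in each GRE. Promoter sequences are from RefSeq (GRCm38.p6).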

Additional observations from a re-analysis of the deposited data

Results flagged for a closer look

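In the OPC-like nuclei, the highest library for Cspg4 stood at 14.9 UMIs per 10000, farther from the other 9 libraries than their range would allow by Dixon's criterion. The highest library for Vcan stood at 12.3 and was marked in the same way. Of 16 measures tested across the 10 libraries these were the 2 marked, and chance marks about 1 in 20. The criterion treats the 10 libraries as 1 population, although Cspg4 did not overlap between the library sets. Over all OPC-like nuclei Cspg4 and Vcan had 75 and 72 UMIs, so the level of a single library rests on few UMIs. The mean viral UMIs of the nuclei chosen on Pdgfra, divided by the mean of other kept nuclei, stood at 0.459 in set 1 and 0.146 in set 2. The medians were 3 against 6 in set 1 and 2 against 3 in set 2. The difference between the sets thus lay in the means, which rest on few nuclei, and not in the medians. Nuclei were not thinned within the sets. Per 1000 cellular UMIs the members held 11.9 viral UMIs against 21.5 in other kept nuclei in set 1, and 3.90 against 14.9 in set 2. At least 1 viral UMI was found in 84.4% of members against 90.4% of other kept nuclei in set 1, and in 69.2% against 81.1% in set 2. With 1 sample the difference between the sets was not tested.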

How the results depend on the processing

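The share of members (1.01% of kept nuclei) became 1.77% with at least 1 Pdgfra UMI, 0.643% with at least 3 and 0.521% above 500 UMIs. Leaving out 1 library at a time gave 0.974 to 1.04%. The genes past 2-fold were 443 higher and 1254 lower than in other nuclei, and 756 higher and 679 lower than in oligodendrocytes. Their numbers varied with the choice of nuclei and with the number of genes tested. The minimum of 1000 UMIs was applied again within each setting. A single set, or a run without 1 library, therefore tested fewer genes, and its counts are not shares of the same total. With at least 1 Pdgfra UMI, 226 were higher and 275 lower than in other nuclei, and 358 lower than in oligodendrocytes. Set 1 alone gave 201 higher and 795 lower than other nuclei, and 398 higher and 449 lower than oligodendrocytes. In set 2 alone 240 were higher than in other nuclei, and the mean over nuclei put 1227 above oligodendrocytes. In that same order, a minimum of 300 UMIs gave 1199, 2327, 1888 and 1548 genes, a minimum of 3000 gave 101, 517, 180 and 172, and a 4-fold limit gave 104, 240, 173 and 211, which follows from testing more or fewer genes or a larger fold. Leaving out single libraries gave 386 to 416, 1156 to 1308, 694 to 739 and 615 to 697. The 45 ratios of genes named for their ratio stayed on their side of 1 in the other settings run for them, but 15 crossed among members with under 2 UMIs of the fibroblast list, and 2 among the fibroblast-marker members alone. With under 2 such UMIs the ratio to other nuclei was 0 for Lum, Cyp1b1, Aldh1a2, Slc6a13, Igf2, Col1a2 and Nid1. It was 0.122 for Col3a1, 0.163 for Dcn, 0.191 for Col1a1 and 0.117 for Apod. The ratio to oligodendrocytes was 0 for Cyp1b1 and Igf2, 0.760 for Col3a1 and 0.950 for Dcn. The split itself removes the UMIs of genes on the fibroblast list. Cyp1b1, Aldh1a2, Nid1 and Apod are not on that list, and their UMIs lay in the same fibroblast-marker nuclei. The viral mean per member was 4.22 to 5.63 with single libraries left out, 0.273 to 0.354 times that of other nuclei and 0.527 to 0.767 times that of oligodendrocytes, and 75.2 to 80.3% of members held a viral UMI. The median GRE ratio of 0.530 became 0.618 with at least 1 Pdgfra UMI, 0.416 in set 2 alone, 0.285 and 0.869 with pseudocounts of 0.001 and 0.1, 0.381 without the richest nucleus of each GRE, and 0.476 to 0.561 without single libraries. GRE269 fell below 1 with at least 3 Pdgfra UMIs (0.562), above 500 UMIs (0.532), in set 2 alone (0.320), without its richest nucleus (0.519) and without library 1-5 (0.535), with 0.535 to 2.84 over the libraries left out. GRE284 fell to 0.182 in set 2, to 0.643 without its richest nucleus and to 0.631 without library 1-4 (0.631 to 1.64 over the libraries). GRE31 fell to 0.938 with at least 1 Pdgfra UMI, 0.790 with Slc17a7 at 0, 0.244 in set 2, 0.767 without its richest nucleus, 0.719 without library 1-3 and 0.951 without library 1-5 (0.719 to 1.30). Of the alternatives chosen after seeing the data, leaving out the Vector column moved no gene across 1. The fibroblast-marker members alone gave 731 genes higher and 2883 lower than other nuclei, 2455 lower than oligodendrocytes, ratios to other nuclei of 0.710 for Cacng4 and 0.364 for Olig1, a median GRE ratio of 0.422, and 0.657, 0.169 and 0.0982 for GRE269, GRE284 and GRE31. Nuclei of 200 to 1000 UMIs put the viral mean at 1.25 times that of oligodendrocytes. They include the nucleus of library 1-5 with 172 viral UMIs, and the ratio without it was not taken. Other than where the construction shows it, the cause was not tested. Each library holds members and comparison nuclei, and the order within libraries is given in the report, without a test. Depth limits the members most where a gene has few UMIs: a ratio from 20 UMIs has a wide interval, a gene without a UMI is bounded by 3 UMIs, and single GREs rest on single nuclei.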
